A study of Homo sapiens with 4 samples.

Results

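The 10 genes described here control epithelial identity and were followed in single MCF10A cells, an untransformed human breast epithelial cell line. They are the splicing regulators ESRP1 and ESRP2, the Grainyhead-like transcription factors GRHL1, GRHL2 and GRHL3, the zinc finger repressors OVOL1 and OVOL2, the epithelium-specific ETS factors ELF3 and EHF, and the p53 family member TP63. The genes were chosen by name and not by a cut on their values, though with earlier results of these data known. All 10 had a row in each of the 4 plates, among 19577 genes. The rows place ESRP1 and GRHL2 on chromosome 8, ESRP2 on 16, GRHL1 on 2, GRHL3 and ELF3 on 1, OVOL1 and EHF on 11, OVOL2 on 20 and TP63 on 3. MCF10A_H2B_GFP cells were seeded as a circular patch of 10000 cells on fibronectin-coated glass and grown for 6 days, so every plate carried the same reporter and the same substrate. Of 4 patches, 2 were phototagged at low resolution, in rings 1000 to 1500 μm wide, and 2 at high resolution, with 2 bands of 250 μm at the rim. In both experiments the study also profiled cells from the inside of the patch. Cells were then sorted into 384-well plates and sequenced by SORT-seq, which counts transcripts from their 3′ ends by unique molecular identifiers (UMIs). Which region a well came from was not used here. Every value is for the sorted cells of a whole plate, and the plate is the replicate.

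Epithelial cells are held together by junctions built on E-cadherin, the product of CDH1, and lose them during the epithelial-to-mesenchymal transition (EMT), when fibronectin (FN1) and repressors such as SNAI2 rise. GRHL proteins bind and activate genes of junctions and of the epithelial barrier, OVOL proteins repress drivers of EMT such as ZEB1, and ELF3 and EHF activate genes of differentiated epithelia. ESRP proteins direct the epithelial forms of spliced transcripts such as those of FGFR2 and CD44. TP63 maintains basal cells of stratified and glandular epithelia, the compartment MCF10A resembles. Counting from the 3′ end shows neither which TP63 form was made nor how an ESRP target was spliced.

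Summed over all wells of a plate and with spike-in rows, the deposited counts came to 11709628 and 12203397 at low resolution. They came to 13211394 and 14992348 at high resolution. The study's limits of 2000 to 9000 features and under 40% mitochondrial counts left 291, 271, 291 and 293 cells, 1146 of 1536 wells, with median depths of 29185 to 39240 UMIs. With no mitochondrial limit there were 332, 321, 334 and 326. In each experiment both counts are smaller than the number of cells the study describes. All plates use the same 384 well barcodes, so barcodes shared between plates do not mark shared cells. KRT5 was found in 99.6% to 100% of cells and KRT8 in 98.3% to 99.3%. Of the markers of other cell types, COL1A1, PECAM1, KDR, CD68 and LYZ were found in 1.37% to 47.1% of cells of a plate. The remaining fibroblast, endothelial and leukocyte markers were found in at most 1.71% of cells or had no row. Low-resolution replicate 1 was sequenced on its own flow cell by the file names, so flow cell and experiment are partly confounded.

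The sequence before the start of a member is shown for ELF3 and GRHL3, whose windows hold an E-box of the kind that SNAI and ZEB proteins bind, and for EHF, whose windows hold none. RefSeq windows on GRCh38.p14 were searched for 5 of the 10 genes (GRHL1, GRHL3, ELF3, EHF and TP63), 7 windows in all. ESRP1 and GRHL2 were left out of this search, and no windows were at hand for ESRP2, OVOL1 and OVOL2. The 250 bases before the start were searched on both strands for CAGGTG, for the Grainyhead site AACNGGTT and for the ETS core CCGGAA. Capitals mark the E-box, which reads CACCTG on the strand printed. The lines give ELF3 (chr1:202010337-202010586, plus strand), GRHL3 (chr1:24319107-24319356, plus strand) and EHF (chr11:34624007-34624256, plus strand).
ELF3: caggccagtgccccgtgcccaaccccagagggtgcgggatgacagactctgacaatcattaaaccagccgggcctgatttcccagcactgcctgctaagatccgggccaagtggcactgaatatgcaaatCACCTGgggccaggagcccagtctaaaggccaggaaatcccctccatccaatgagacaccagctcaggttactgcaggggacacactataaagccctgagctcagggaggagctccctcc
GRHL3: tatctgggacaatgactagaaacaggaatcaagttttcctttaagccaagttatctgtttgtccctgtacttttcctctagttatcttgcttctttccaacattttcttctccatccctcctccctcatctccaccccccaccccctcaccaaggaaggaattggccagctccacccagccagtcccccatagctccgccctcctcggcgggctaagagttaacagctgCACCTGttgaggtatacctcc
EHF: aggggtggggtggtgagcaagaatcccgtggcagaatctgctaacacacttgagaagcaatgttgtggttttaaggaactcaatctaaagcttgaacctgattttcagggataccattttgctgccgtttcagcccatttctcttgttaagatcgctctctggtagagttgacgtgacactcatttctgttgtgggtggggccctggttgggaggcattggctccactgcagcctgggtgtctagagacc
The match lies 120 bases before the start of ELF3 and 21 before that of GRHL3. The second GRHL3 window, the second EHF window and those of GRHL1 and TP63 had no CAGGTG, and neither AACNGGTT nor CCGGAA was in any of the 7. Of 35116 windows of this length, 17.5% hold CAGGTG, 1.49% AACNGGTT and 14.5% CCGGAA, so a match is common and is given as a description of the letters only.

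The share of cells with a UMI differed widely between the genes, which are grouped here by a set limit of 20% of the cells of each plate. The limit does not mark a gap, since the highest share of OVOL2 (34.3%) nearly met the lowest of ESRP2 (34.4%). EHF was found in 79.4% and 80.1% of cells of the low-resolution plates and in 70.1% and 71.0% of the high-resolution plates. ELF3 was found in 70.1% and 81.2% against 61.2% and 63.8%. ESRP1 was found in 60.1% and 61.3% against 46.7% and 53.2%, close to CDH1 with 61.9% and 65.7% against 47.8% and 52.2%. For these 3 regulators and for CDH1, both high-resolution plates lay below both low-resolution plates. How many of all genes have their plates in this order was not counted, so here and below the order is a description only. ESRP2, the paralog of ESRP1, was found in 34.4% to 41.2% of cells, with the plates of the 2 experiments interleaved. Each of these 4 regulators was thus found in more than 20% of the cells of each plate.

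**Figure D1:**
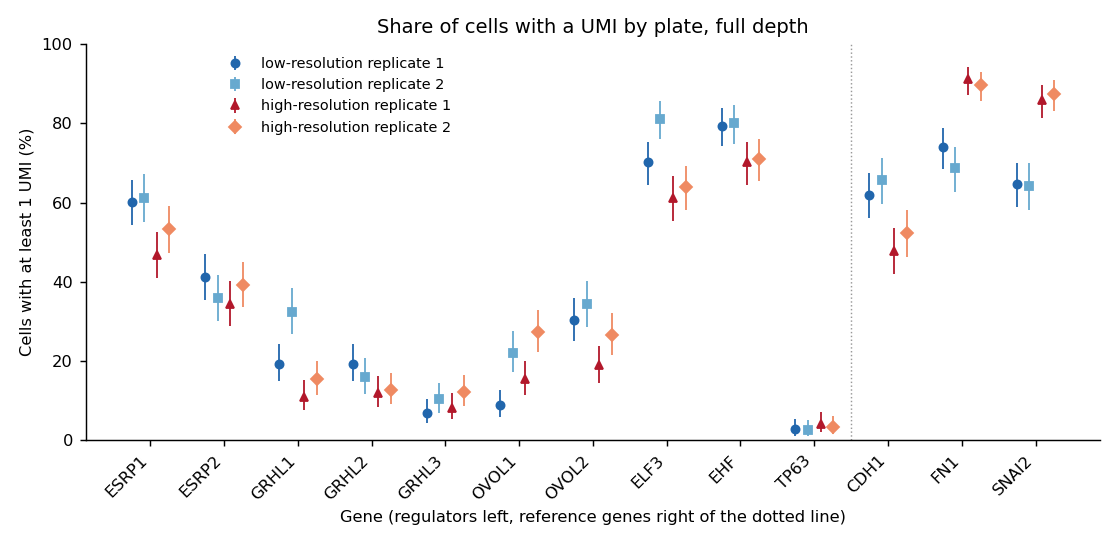
Share of cells with at least 1 UMI (%, y axis) for the 10 regulators and the 3 reference genes (x axis), 1 point per plate, with exact (Clopper-Pearson) 95% binomial intervals that cover counting error only. ESRP1, ELF3, EHF and CDH1 sit lower in both high-resolution plates, FN1 and SNAI2 sit higher, and TP63 stays at or under 4.12% in every plate.

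The other 6 were rarer. OVOL2 was found in 30.2% and 34.3% of cells at low and 18.9% and 26.6% at high resolution, and GRHL1 in 19.2% and 32.5% against 11.0% and 15.4%. GRHL2 was found in 19.2% and 15.9% against 12.0% and 12.6%. In each of these the high-resolution plates again lay lowest. OVOL1 and GRHL3 did not follow that order. OVOL1 ranged from 8.93% in low-resolution replicate 1 to 27.3% in high-resolution replicate 2, with the plates of each experiment far apart. GRHL3 was found in 6.87% to 12.3% of cells.

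TP63 was close to the limit of detection. It had 9, 9, 12 and 10 UMIs in the 4 plates, 40 in all, in 2.75%, 2.58%, 4.12% and 3.41% of cells. PTPRC, a leukocyte gene that epithelial cells should lack, was found in 0.344% to 1.71% of cells, and the exact 95% interval of TP63 began at 1.02% to 2.15% in the 4 plates. The sources used here do not name the annotation behind the counts, and these UMIs need not cover every 3′ end of TP63. TP63 did not pass the filter on low counts in any of the 4 comparisons. With no such filter edgeR did not call it between the experiments (log2 fold change 0.0208, adjusted p = 0.986), by FN1 (−0.72, adjusted p = 0.571), by CDH1 (0.0674, adjusted p = 0.968) or by SNAI2 (0.33, adjusted p = 0.835), with standard errors of 0.564 to 0.675.

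A share of cells with a UMI depends on the depth of the cells as well as on the level of the gene. After thinning every cell to 10000 UMIs, which left out 4, 3, 7 and 2 shallower cells, ELF3 was found in 47.7% ± 9.61 of cells, EHF in 47.1% ± 10.4, ESRP1 in 33.4% ± 5.10 and ESRP2 in 15.6% ± 2.12 (mean ± SD over 4 plates). OVOL2 came to 10.8%, OVOL1 to 6.82%, GRHL1 to 6.44%, GRHL2 to 4.97%, GRHL3 to 3.01% and TP63 to 0.798%. The order of the experiments for EHF, ELF3 and ESRP1 did not change with thinning. Within a plate the transcripts were unevenly spread over cells. The richest 10% of cells held 42.5%, 39.0%, 51.1% and 49.2% of ELF3 UMIs, and 37.9%, 37.0%, 45.6% and 39.9% of EHF UMIs. Single cells reached 74 ELF3 UMIs and 46 EHF UMIs, both in high-resolution replicate 2, but at most 18 for ESRP1.

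The first question was how these genes stood in cells rich and poor in FN1. In each plate, cells were ranked by FN1 UMIs after thinning, and cells at or above the upper tertile (at least 3, 3, 9 and 8 UMIs) were set against cells at or below the lower tertile (0 UMIs at low resolution, 0 or 1 at high resolution). The classes held 91 to 101 and 112 to 131 cells per plate, and their counts were summed per plate, giving 8 sums over 4 plates with the plate as a block. Levels are given as UMIs per 10000 UMIs, with no correction for transcript length, so each gene is compared with itself. Of 10966 genes tested by edgeR, 35.1% were called in either direction, 18.8% were higher and 16.2% were lower in FN1-upper cells. All 9 regulators that passed the filter on low counts were lower in FN1-upper cells, with a median log2 fold change of −3.03 against 0.00 for all genes tested. A gene can pass this filter through a single class of cells, and GRHL1, GRHL2 and GRHL3 had only 16, 13 and 9 UMIs in FN1-upper cells. With no such filter, 9 of all 10 regulators were called lower (median −3.06), and 2400 of 18914 genes were. CDH1 fell by 3.13 and SNAI2 rose by 1.79 on the log2 scale.

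ESRP1 was far lower in FN1-upper cells. Its level was 1.07, 0.921, 0.786 and 0.760 in FN1-lower cells of the 4 plates (low-resolution replicates 1 and 2, then high-resolution replicates 1 and 2) and 0.126, 0.0948, 0.0464 and 0.0858 in FN1-upper cells. The classes did not overlap, and the log2 fold change was −3.34 (SE 0.138, edgeR adjusted p = 2.8e-08, lower in 4 of 4 plates). ESRP1 was found in 82.7% to 90% of FN1-lower and 12.6% to 20% of FN1-upper cells. ESRP2 had levels of 0.315, 0.281, 0.305 and 0.220 against 0.0408, 0.00947, 0.0464 and 0.0417, a log2 fold change of −2.98 (SE 0.241, edgeR adjusted p = 2.3e-06). The paralogs thus fell by similar amounts, while the difference between them was not tested.

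The GRHL genes were rare in both classes and rarer still in FN1-upper cells. GRHL1 had levels of 0.129, 0.20, 0.0797 and 0.0733 in FN1-lower cells and 0.00628, 0.0316, 0 and 0.00927 in FN1-upper cells. In high-resolution replicate 1, 0 of 95 FN1-upper cells had a GRHL1 UMI, which allows a share of up to 3.16%. Over the 4 plates GRHL1 had 250 UMIs in the lower and 16 in the upper class, with a log2 fold change of −3.35 (SE 0.361). GRHL2, which activates CDH1 and other junction genes, had 162 against 13 UMIs and a log2 fold change of −3.03 (SE 0.347). GRHL3, a factor of barrier formation and wound closure, had 123 against 9 UMIs and −3.14 (SE 0.382). For all 3, each plate was lower in its FN1-upper cells and the classes did not overlap.

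OVOL1 and OVOL2 moved the same way. OVOL2 had levels of 0.235, 0.209, 0.122 and 0.142 against 0.0283, 0.0537, 0.00619 and 0.0255, a log2 fold change of −2.65 (SE 0.258). OVOL1 had 0.0507, 0.192, 0.138 and 0.318 against 0.00942, 0.00947, 0.00619 and 0.0487, a log2 fold change of −3.19 (SE 0.278). The FN1-lower level of OVOL1 in low-resolution replicate 1 was the lowest of its class, just above the highest FN1-upper level. Reads of OVOL1 and of an antisense RNA at that locus cannot be told apart where the counting was blind to strand, which the sources used here do not state.

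The ETS factors differed from each other. ELF3 had levels of 2.95, 3.52, 1.73 and 1.63 in FN1-lower and 0.302, 0.667, 0.288 and 0.457 in FN1-upper cells, with a log2 fold change of −2.51 (SE 0.177). It was still found in 39.0% to 54.9% of FN1-upper cells. EHF had 1.32, 1.5, 0.828 and 0.686 against 0.852, 0.660, 0.402 and 0.490, with a log2 fold change of only −0.85 (SE 0.111, edgeR adjusted p = 0.000102). EHF was lower in the FN1-upper cells of each plate, but its classes overlapped across plates, and it remained in 58.4% to 72.0% of FN1-upper cells. The difference between the fold changes of EHF and ELF3 was not tested. TP63 had 24 UMIs in the lower and 10 in the upper class, with overlapping levels.

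**Figure D2:**
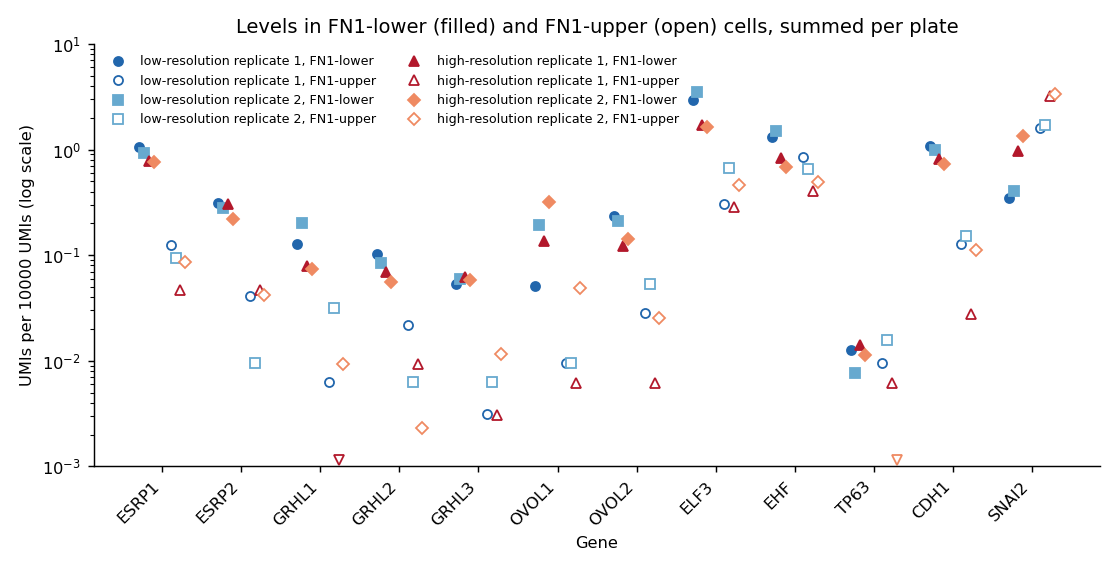
Level of each gene (UMIs per 10000 UMIs, log axis) in FN1-lower (filled) and FN1-upper (open) cells, 1 point per plate and class; downward triangles at the bottom edge mark a level of 0. The classes are apart for ESRP1, ESRP2, the 3 GRHL genes, OVOL1, OVOL2, ELF3 and CDH1, close together for EHF, and SNAI2 runs the other way.

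The classes also differed in general measures. The median depth was 30822, 32984, 37266 and 39600 UMIs in FN1-lower against 26208, 28718, 32830 and 38562 in FN1-upper cells. The median mitochondrial share was 32.6%, 32.1%, 32.2% and 30.5% in FN1-lower against 26.4%, 29.8%, 29.0% and 26.9% in FN1-upper cells, and the summed level of 8 cycling markers was 10.3, 7.49, 11.5 and 13.5 against 9.25, 5.10, 9.46 and 9.78 UMIs per 10000. The median mitochondrial share was also higher in cells with CDH1 (31.7%, 31.6%, 33.0% and 30.5%) than without (28.3%, 31.0%, 28.9% and 27.6%), and lower in cells with SNAI2 (28.0%, 30.5%, 28.7% and 27.6%) than without (30.9%, 31.8%, 32.7% and 29.7%). The part of these measures in the results was not tested. With no mitochondrial limit, all 9 regulators were called again in the same direction by FN1, CDH1 and SNAI2.

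The number of different regulators seen in a cell showed the same split. After thinning, a cell had 1.77 ± 0.336 of the 10 regulators on average (mean ± SD over 4 plates). FN1-lower cells had 2.65 ± 0.331 and FN1-upper cells 0.765 ± 0.101. None of the 10 was seen in 4.58%, 0.769%, 12.5% and 7.87% of FN1-lower cells, against 38.0%, 47.3%, 51.6% and 52.5% of FN1-upper cells. No cell had more than 7.

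The second comparison set cells with a CDH1 UMI after thinning against cells without one. CDH1 was too sparse for tertiles, since the upper tertile and the median gave the same classes, and the 2 classes cover all cells. Of 11087 genes tested by edgeR, 22.3% were called and 11.1% were higher in cells with CDH1. All 9 regulators tested were higher, with a median log2 fold change of 1.25 against −0.01 for all genes tested. GRHL3 (1.78, SE 0.273) and OVOL1 (1.76, SE 0.259) had the largest values and EHF (0.79, SE 0.0773) the smallest. ESRP1 had levels of 0.954, 0.815, 0.741 and 0.826 with and 0.454, 0.463, 0.292 and 0.306 without a CDH1 UMI, a log2 fold change of 1.19 (SE 0.0994, edgeR adjusted p = 2.8e-07). Cells without a CDH1 UMI after thinning still carried CDH1 at full depth, at 0.214 to 0.379 UMIs per 10000. The size of these values depended on the classes. With tertiles of CDH1 at full depth, the 9 regulators were higher again with a median log2 fold change of 2.7, with 3.43 for OVOL1, 2.98 for ESRP1 and 1.20 for EHF.

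OVOL1 was uneven between plates in this split. Its level was 0.0605, 0.141, 0.146 and 0.457 in cells with and 0.0222, 0.101, 0.0352 and 0.0810 in cells without a CDH1 UMI. The log2 fold change was 0.76 at low and 2.39 at high resolution, a difference of 1.63 (SE 0.342) that did not pass the threshold in the edgeR fit with an interaction (adjusted p = 0.0733), where 0.271% of 11087 genes were called. In the interaction fits for the FN1 and SNAI2 classes, edgeR called 0.383% and 0.253% of genes and no regulator. At an unadjusted p under 0.05 there were 1 regulator for FN1, 3 for CDH1 and 0 for SNAI2, of 9 tested in each, against 12.8%, 11.0% and 6.77% of all genes.

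The third comparison was by SNAI2, which encodes the repressor SLUG. Cells with a SNAI2 UMI after thinning made up 44.3% and 41.4% of the low-resolution and 67.6% and 69.8% of the high-resolution plates. Of 11089 genes tested by edgeR, 24.8% were called and 12.5% were lower in cells with SNAI2. All 9 regulators tested were lower, with a median of −1.17 against 0.00 for all genes tested. GRHL3 had the largest fall, from 0.0424, 0.0553, 0.0613 and 0.0863 in cells without to 0.00677, 0.00975, 0.0144 and 0.0190 in cells with SNAI2, a log2 fold change of −2.28 (SE 0.265, edgeR adjusted p = 9.8e-07). ELF3 had 2.7, 2.76, 1.84 and 1.89 without and 0.795, 1.68, 0.579 and 0.682 with SNAI2, a log2 fold change of −1.42 (SE 0.108). EHF again had the smallest (−0.77, SE 0.0857), but with SNAI2 classes at full depth OVOL1 (−0.69) and ESRP1 (−0.73) were smaller than EHF (−0.82). GRHL2 (−0.87, SE 0.231) was lower in each plate with an edgeR adjusted p of 0.00714, but the call was lost without low-resolution replicate 1 (adjusted p = 0.118).

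**Figure D3:**
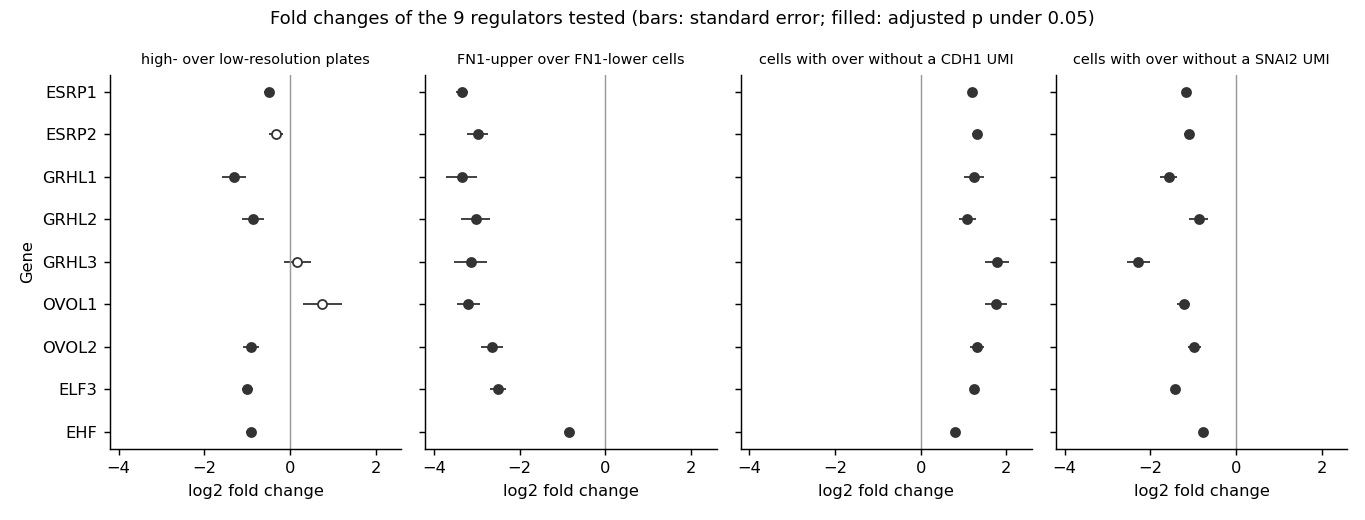
Log2 fold change (x axis) of the 9 regulators that passed the filter on low counts (y axis) in the 4 comparisons, from edgeR on sums per plate; bars are standard errors, filled points have an adjusted p under 0.05 and open points do not. All 9 lie below 0 for FN1 and SNAI2 and above 0 for CDH1, while between the experiments ESRP2, GRHL3 and OVOL1 were not called.

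Across single cells the regulators were correlated with each other and with the reference genes to very different degrees. Spearman rho was computed per plate over 271 to 293 cells of 1 library each, on counts log-normalized to 10000, and a pair was counted when each of the 4 plates gave a rho of the same sign and 0.2 or more in size. By this rule 6 regulators followed FN1 negatively, against 3.03% of 11012 genes, 9 followed CDH1 positively (2.97% of genes) and 5 followed SNAI2 negatively (1.7%). With cells thinned to 10000 UMIs these counts were 4 (1.21% of genes), 2 (0.536%) and 2 (0.572%). At full depth ESRP1 had the mean rho of largest size with FN1 (−0.641, range −0.670 to −0.631) and CDH1 (0.60, 0.502 to 0.671), and ELF3 with SNAI2 (−0.455, −0.484 to −0.414). After thinning ELF3 was ahead of ESRP1 for FN1 (−0.495 against −0.474) and CDH1 (0.371 against 0.301), and it was ahead for CDH1 also by Pearson's r (0.573 against 0.550) and with no mitochondrial limit (0.569 against 0.540). For comparison, FN1 and CDH1 themselves had a mean rho of −0.635. EHF had −0.266 with FN1 and −0.333 with SNAI2. The mean rho of TP63 lay between −0.0597 and 0.0638 for the 3 reference genes.

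Of the 45 pairs of regulators, 11 followed each other, against 0.328% of pairs of all genes found in at least 5% of cells. ESRP1 or ELF3 took part in each of the 11. The closest pair was ESRP1 and ELF3 (mean rho 0.554, 0.526 to 0.570), then ESRP1 and ESRP2 (0.434), ELF3 and EHF (0.390), ESRP1 and OVOL2 (0.358) and OVOL2 and ELF3 (0.357). GRHL1 and GRHL2 had a mean rho of 0.136, GRHL2 and GRHL3 of 0.0695, and OVOL1 and OVOL2 of 0.189, so members of the GRHL and OVOL families did not reach the limit with each other. In counts as sparse as these a weak correlation is no finding. With every cell thinned to 10000 UMIs, 3 pairs kept the limit: ESRP1 with ELF3 (0.404), ELF3 with EHF (0.294) and ESRP2 with ELF3 (0.228).

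**Figure D4:**
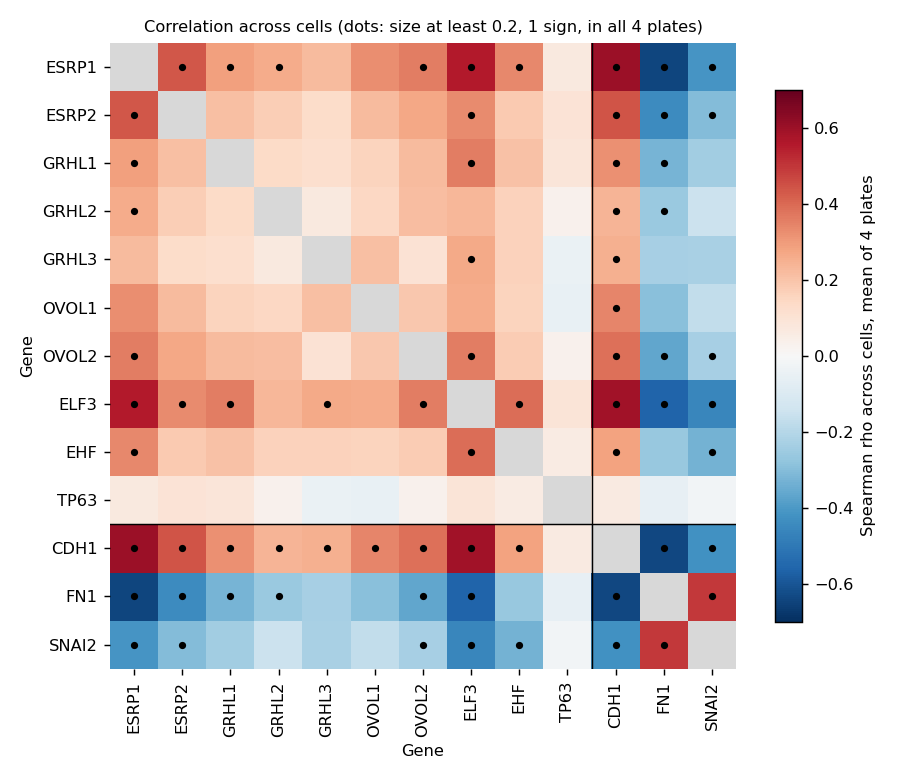
Mean Spearman rho across cells over the 4 plates (colour, from −0.7 in blue to 0.7 in red) for each pair of the 10 regulators and 3 reference genes (both axes), with dots where rho keeps its sign and reaches 0.2 in size in each of the 4 plates. The rows of ESRP1 and ELF3 hold the strongest values, such as 0.554 with each other, and the row of TP63 is near 0.

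Co-detection gave the same picture in counts of cells. Among thinned cells with an ESRP1 UMI, 70.9%, 89.0%, 70.2% and 67.5% had an ELF3 UMI, against 37.9%, 42.9%, 26.0% and 30.8% of cells without ESRP1, and the exact 95% binomial intervals did not overlap in any plate. FN1 was found in 26.4%, 24.0%, 52.4% and 42.2% of cells with ESRP1 and in 71.8%, 67.9%, 86.5% and 82.2% of cells without. Cells with UMIs of both ESRP1 and FN1 thus made up a larger part of ESRP1 cells in each high-resolution plate than in either low-resolution plate.

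Within the FN1 classes fewer pairs kept a correlation. In FN1-lower cells, of 15 pairs among ESRP1, ESRP2, OVOL2, ELF3, EHF and CDH1, only ELF3 with EHF (mean rho 0.335), ELF3 with CDH1 (0.306) and ESRP1 with EHF (0.257) kept at least 0.2 in all plates. ESRP1 with ELF3 came to 0.198 and ESRP1 with CDH1 to 0.136. In FN1-upper cells 0 of the 15 pairs did. Each class holds at most 131 cells of a plate and a narrower range of levels, so these values describe the classes and carry no test.

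For the 4 frequent regulators, the genes most like them were sought among 8028 genes that 20% or more of the cells of each plate held, by mean rho over the 4 plates. ESRP1 was closest to AP1M2 (0.637), RAB25 (0.637) and MAL2 (0.635), which code for proteins of polarized membrane traffic. The genes closest to ELF3 included FXYD3 (0.719), a sodium pump subunit, and the tight junction gene CLDN4 (0.690). ESRP2 was closest to EPCAM (0.482), S100A14 (0.443) and CDH1 (0.441). EHF was closest to SLPI (0.526), a secreted protease inhibitor, to the lysosomal protease gene CTSD (0.476) and to RARRES1 (0.459).

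The experiments were compared as 2 high- against 2 low-resolution plates. Fewer cells of a kind and less RNA per cell cannot be told apart in such sums, and the labels say nothing of how many cells of each region were sorted. Of 12437 genes tested by edgeR, 12.4% were called, 6.26% were higher and 6.18% were lower in high-resolution plates. Of the 10 regulators, 9 were tested and 6 were lower, with a median log2 fold change of −0.87 against −0.02 for all genes tested. CDH1 was lower (−0.68), while FN1 (0.77) and SNAI2 (1.36) were higher. Other markers moved as well. Of 8 cycling markers, MCM2, RRM2 and UBE2C were higher, and their summed level was 10.1 and 7.0 UMIs per 10000 at low against 11.0 and 12.6 at high resolution. Of 6 basal markers, 4 were higher, among them KRT17 and KRT6A (summed level 47.4 and 46.1 against 65.2 and 67.5). Of 6 luminal markers, KRT7 was higher and KRT19 and MUC1 were lower (summed level 36.9 and 40.4 against 48.1 and 42.6). Of 4 endothelial markers, PECAM1 was higher and KDR lower, at a summed level of 0.188 and 0.195 against 0.217 and 0.234. The part of these markers in the result was not tested.

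ELF3 had levels of 1.84 and 2.33 at low and 1.00 and 1.05 at high resolution, and a log2 fold change of −0.99 (SE 0.136, edgeR adjusted p = 0.000878). EHF had 1.10 and 1.17 against 0.607 and 0.574, and −0.91 (SE 0.117, edgeR adjusted p = 0.000631). In both, the plates of the experiments did not overlap. On the flow cell that holds low-resolution replicate 2 and both high-resolution plates, where the lone plate is assumed to vary like the others, 7.65% of genes were called and 4.27% were lower, and ELF3 (−1.18, edgeR adjusted p = 0.000634) and EHF (−0.98, edgeR adjusted p = 0.00199) were among them.

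GRHL1 had 0.0778 and 0.131 at low and 0.0402 and 0.0428 at high resolution, a log2 fold change of −1.30 (SE 0.279, edgeR adjusted p = 0.0113). It stayed called within the flow cell (−1.65, edgeR adjusted p = 0.00316) but not without low-resolution replicate 2 (−0.82, adjusted p = 0.0727), the plate in which it was highest. OVOL2 had 0.151 and 0.153 against 0.0691 and 0.0879, or −0.91 (SE 0.195, edgeR adjusted p = 0.0110), and was called within the flow cell (−0.95, edgeR adjusted p = 0.0279). Its call was lost without high-resolution replicate 1 (adjusted p = 0.0534). Both genes had plates that did not overlap between the experiments.

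ESRP1 and GRHL2 rested on thinner evidence. ESRP1 had 0.680 and 0.586 against 0.428 and 0.451, a log2 fold change of −0.49 (SE 0.121, edgeR adjusted p = 0.0217). GRHL2 had 0.0768 and 0.0595 against 0.0402 and 0.0325, or −0.87 (SE 0.255, edgeR adjusted p = 0.0434). Neither passed the threshold within the flow cell (ESRP1 −0.41, edgeR adjusted p = 0.0952; GRHL2 −0.72, edgeR adjusted p = 0.169), nor without high-resolution replicate 1 or 2. Without low-resolution replicate 2 both were called (ESRP1 −0.55, edgeR adjusted p = 0.0302; GRHL2 −1.01, edgeR adjusted p = 0.0456).

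The other 3 were not called. ESRP2 had 0.235 and 0.188 against 0.179 and 0.149, a log2 fold change of −0.33 (SE 0.17, edgeR adjusted p = 0.226). GRHL3 had 0.0263 and 0.0367 against 0.0297 and 0.0392, with overlapping plates. OVOL1 had 0.0394 and 0.115 against 0.0683 and 0.186, a log2 fold change of 0.75 (SE 0.452, edgeR adjusted p = 0.304), and its value depended on single plates. It was 1.78 without low-resolution replicate 2, 1.28 without high-resolution replicate 1 and −0.14 without high-resolution replicate 2. Each of these fits leaves a lone plate in a group, so only the sizes are given. With no filter on low counts OVOL1 was called higher (0.77, edgeR adjusted p = 0.00464).

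The high-resolution plates held more FN1 and fewer cells without it, so the comparison was repeated, in a step chosen after the data were seen, in cells with no FN1 UMI after thinning. There were 131 and 130 such cells at low and 67 and 85 at high resolution. Of 10936 genes, edgeR called 6.68%, and 3.2% were lower at high resolution. ELF3 (2.95 and 3.52 against 1.80 and 1.53; −0.94, edgeR adjusted p = 0.00229), EHF (1.32 and 1.5 against 0.902 and 0.720; −0.78, edgeR adjusted p = 0.0102) and GRHL1 (0.129 and 0.20 against 0.0767 and 0.0769; −1.08, edgeR adjusted p = 0.0403) were still lower.

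The ESRP genes came close together in these cells. ESRP1 had 1.07 and 0.921 against 0.879 and 0.872, a log2 fold change of −0.16 (edgeR adjusted p = 0.562), and ESRP2 had 0.315 and 0.281 against 0.320 and 0.261, or −0.02. OVOL2 (−0.52, edgeR adjusted p = 0.180), GRHL2 (−0.41) and CDH1 (−0.30, edgeR adjusted p = 0.255) did not pass the threshold either. SNAI2 was higher at high resolution also in these cells (1.47, edgeR adjusted p = 0.000917). FN1 at full depth was 0.241 and 0.229 against 0.294 and 0.452 UMIs per 10000 in them, so the cells were alike but not equal in FN1. Whether the fold changes of ELF3 and ESRP1 differ from each other was not tested.

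**Figure D5:**
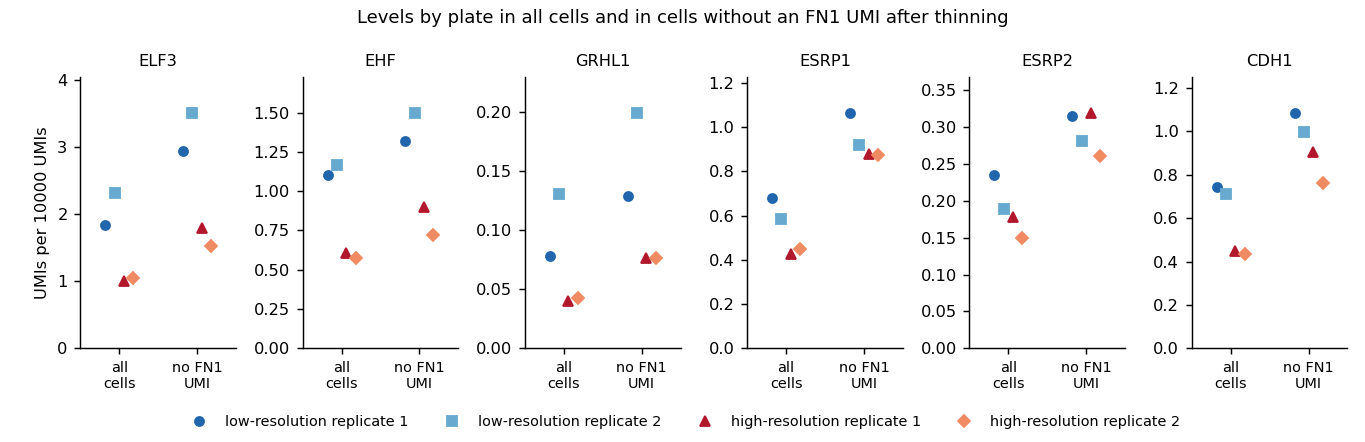
Level (UMIs per 10000 UMIs, y axes from 0 and scaled per gene) of 5 regulators and CDH1 in all cells and in cells without an FN1 UMI after thinning (x axis), 1 point per plate. ELF3, EHF and GRHL1 stay apart between low- and high-resolution plates in the cells without FN1, while ESRP1 and ESRP2 come within 0.872 to 1.07 and 0.261 to 0.320.

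Other genes of the same pathways were read from the same fits, in lists drawn up with earlier results of these data known. Over all genes tested, 16.2% were lower and 18.8% higher in FN1-upper cells, and 6.18% were lower and 6.26% higher at high resolution. Of 12 further epithelial transcription factors, 9 were tested in the FN1 split and all 9 were lower in FN1-upper cells, with a median log2 fold change of −0.62. FOXA1, a luminal pioneer factor, had −2.15 and TFAP2C −1.36, while KLF4 had only −0.29. Of 8 mesenchymal transcription factors, 6 were tested and 5 were higher, led by ZEB1 with 3.52 and ZEB2 with 2.14, while SNAI1 (−0.26) was not called. Between the experiments, 4 of 9 epithelial factors (FOXA1, GATA3, KLF5 and TFAP2A) were lower at high resolution and 2 of 7 mesenchymal factors (FOXC2 and TWIST2) were higher. ZEB1 was not called there (0.26, edgeR adjusted p = 0.567).

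Of 8 other splicing factors linked to EMT, RBM47, which acts on the epithelial side beside the ESRP proteins, was lower in FN1-upper cells (−1.33). MBNL1, MBNL2, QKI and RBFOX2 were higher, with values from 0.31 for MBNL2 to 0.68 for QKI, and PTBP1, SRSF1 and HNRNPM were not called. RBM47 was the sole member of this list lower at high resolution (−0.89), and SRSF1 was higher (0.38).

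Known targets were counted by the factor that binds them. Over all genes tested, 16.2% were lower by FN1, 11.1% higher with CDH1, 12.5% lower with SNAI2 and 6.18% lower at high resolution. Of 8 targets of GRHL2, 7 were tested (CLDN4, DSP, ERBB3, OCLN, RAB25, SPINT1 and ST14). All 7 were lower in FN1-upper cells (median −2.45), higher in cells with CDH1 (median 1.33), lower in cells with SNAI2 (median −1.12) and lower at high resolution (median −0.75). Occludin (OCLN) had the largest value by FN1, −3.36. The 10 targets of TP63 were mixed by FN1: DST, ITGA3 and ITGB4 were higher, COL17A1, JAG2, KRT5 and PERP were among those lower, and KRT14 and LAMB3 were not called. Between the experiments ITGB4 and LAMB3 were higher and COL17A1, DST and PERP lower at high resolution. These 2 lists, of epithelial factors and of TP63 targets, share 1 gene.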

How the data were processed

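The 10 regulators and the gene lists were chosen with earlier results of these data known, and the lists come from general knowledge of the pathways. For each gene and well of a plate the file deposited by the authors gives an expected count, the tally of UMIs with a correction for repeated draws from 4096 UMI sequences, with spike-in rows, unscaled and with no filter on wells. The submitters' processing notes name STAR 2.7.3a, Seurat 4 and hg38, and the annotation is not given in the sources used here. Whole UMIs were recovered by undoing the correction. The region of each well was not used here. Spike-ins were left out after the study's filter (2000 to 9000 features, under 40% mitochondrial counts), and no doublet caller was run besides the upper limit on features. The table of well barcodes was not used.

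Expected counts were summed over cells and rounded, then tested with edgeR 4.0.16 (quasi-likelihood, TMM, filterByExpr, Benjamini-Hochberg over all genes tested, threshold 0.05), with the plate as a block in the splits of cells by FN1, CDH1 or SNAI2 and no covariate between the experiments, 2 plates against 2. Classes of cells were set on counts thinned to 10000 UMIs per cell. DESeq2 1.42.0 was an alternative, beside no filter on low counts, no mitochondrial limit, other classes, other depths, other limits on rho, and fits without 1 plate. Between the experiments, a fit without 1 plate leaves a lone plate in a group, which is assumed to vary like the others. The repeat in cells without an FN1 UMI and the interaction of class with experiment were chosen after the data were seen. The 2 patches of an experiment are biological replicates by the series' description. Genes named are the 10 regulators, CDH1, FN1, SNAI2, the called genes of the lists, and for each regulator that 20% or more of the cells of each plate held the 3 genes with the highest mean rho. Some genes that this rule names are not reported here. Other list members given as not called were named after their values were seen.

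The plates hold 9454340 to 12807152 UMIs in the cells kept, so a gene at the level of TP63 rests on about 10 UMIs per plate. The edgeR step was tested on simulated data. The dispersions were set and not estimated from the plates, and no plate effect was simulated. The changed genes were drawn from all levels that passed the filter, so recovery at the level of the rarer regulators was not measured. Between the experiments (12437 genes, 200 changed), it recovered 79% of changes of 1 on the log2 scale and 99% of changes of 2 at a dispersion of 0.01, with 7 false calls, and 28% and 97% at 0.05, with 10. In the FN1 split (10966 genes) it recovered 86% and 100% at 0.01 and 64% and 100% at 0.05.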

Additional observations from a re-analysis of the deposited data

How the results depend on the processing

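Between the experiments, the count of genes called was 1547, and 1009 with thinned cells, 730 in cells without an FN1 UMI and 982 to 1172 with 1 plate left out. The count of regulators called was 6, and 3 in cells without an FN1 UMI, all of them lower at high resolution. It was 4 with thinned cells, 5 with no mitochondrial limit and 5 by DESeq2, again all lower. Whichever plate was left out, fewer regulators were called lower than with all plates. With 1 plate left out, GRHL3 ranged from −0.0803 (without low-resolution replicate 1) to 0.477 and was also below 0 without high-resolution replicate 2, and OVOL1 ranged from −0.14 (without high-resolution replicate 2) to 1.78. The replicate numbers were not taken as pairs: the deviations of same-numbered plates had r = −0.0241 over genes, and with the replicate block 2023 genes and 7 regulators were called, OVOL1 being the added call (edgeR adjusted p = 0.0142). GRHL2 was not called by DESeq2 between the experiments (adjusted p = 0.185) or by SNAI2 (adjusted p = 0.111).

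In the splits of cells, the 9 regulators were called under each alternative for FN1. With no replicate block they were 6 for CDH1 and 6 for SNAI2, and 8 for SNAI2 by DESeq2. The counts of all genes called moved more: for FN1 3845, against 2521 by DESeq2 and 2378 with no replicate block, for CDH1 2477 against 1433 and 635, and for SNAI2 2752 against 1459 and 809.

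The 4 regulators in at least 20% of cells were 2 after thinning to 5000 UMIs. Thinning to 10000 lowered the regulators following FN1 from 6 to 4, those following CDH1 from 9 to 2, those following SNAI2 from 5 to 2 and the pairs from 11 to 3. A limit of 0.1 on rho raised those following SNAI2 to 8 and the pairs to 27. Of the single fold changes under the alternatives, 406 kept their direction and their side of the threshold, 26 lost and 4 gained the call, and 3 changed sign. These counts include the reference genes beside the regulators. The CDH1 split at the median, which repeats the main classes, is among those kept. The causes were not tested. TP63 rests on 40 UMIs in all.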
